A study of Mus musculus with 45 samples.

Results

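Bone-marrow-derived macrophages of C57BL/6 mice were given IFN-γ and IL-4 together for 4 h and compared with untreated macrophages. Each of these groups had 3 libraries, which makes 6 of the 45 samples of the series and 6 of the 21 libraries in the table analysed. Marrow cells had been grown in medium conditioned by L929 cells and were taken on day 7 of differentiation, and poly(A) RNA was sequenced. The combination group received 100 ng/ml IFN-γ with 10 ng/ml IL-4, the IL-4 group 10 ng/ml IL-4 alone, the IFN-γ group 100 ng/ml IFN-γ alone, and the untreated group no cytokine. No library in these groups carried a hairpin or a genetic change. The untreated group is recorded with a treatment time of 0 h, and no untreated library is recorded at 4 h. Effects of the cytokines and of 4 h of further culture and handling therefore cannot be told apart in comparisons with it. Libraries were assigned by their treatment labels and paired by the replicate numbers 1 to 3 in those labels. Nothing in the labels tells whether the replicates are separate animals or cultures, so p-values reflect the spread among these libraries alone and it may be technical.

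IFN-γ signals through the receptor chains Ifngr1 and Ifngr2 and the kinases Jak1 and Jak2 to STAT factors, which bind short palindromic elements and induce Irf1 and many genes of defence against intracellular microbes. IL-4 signals through Il4ra, paired with Il2rg or Il13ra1, to Stat6, which induces genes of alternative activation such as Arg1, Retnla and Pdcd1lg2. In macrophages these programmes are usually described as classical and alternative activation, and each can hold back parts of the other.

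Values below are rescaled CPM, the reads of a gene relative to all assigned reads of its library, after median-ratio rescaling of the libraries. Log2 changes are given ± their standard error and were taken on log2(CPM + 1) in a limma fit with the replicate number as a block, with n = 3 libraries per group. This scale understates changes of genes that are near 0 in either group. In RNA from a whole culture, a change in the number of cells of a type and a change in RNA per cell cannot be told apart.

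The 6 libraries held 28920801 to 80028327 assigned reads. Untreated replicates 2 and 3 stood apart: 43.2% and 15.7% of their reads came from Rn45s, the ribosomal RNA precursor, against 0.151% in untreated replicate 1 and 0.246% to 3.21% in the combination libraries. Reads of Lars2 were also raised there, at 7.42% and 2.76%, against 0.120% in untreated replicate 1 and 0.131% to 1.01% in the combination libraries. Macrophage markers were high in both groups: Csf1r, the receptor for the growth factor CSF1, had 5044, 2999 and 4457 CPM in combination libraries and 5034, 2742 and 4916 CPM in untreated ones. Of the 10 macrophage markers 3 rose and 4 fell, with 1 called lower as deposited and 1 without the replicate block, and together they summed to 19198 to 28266 CPM with the combination and 21502 to 37401 CPM without cytokine. Of the T cell markers Cd3e, Cd3g and Cd3d, none exceeded 0.302 CPM in any of the 6 libraries, and the B cell markers Ms4a1 and Pax5 and the natural killer cell marker Ncr1 stayed at or under 0.0849 CPM. The 4 listed markers of natural killer cells summed to 0 to 0.113 and 0 to 0.218 CPM. The sums for neutrophil markers were 57.6 to 196 CPM in combination libraries and 66.8 to 167 CPM in untreated ones, and for fibroblast markers 11.9 to 12.8 and 6.52 to 13.2 CPM. The T cell list summed to 19.2 to 30.9 and 5.79 to 27.2 CPM, nearly all of it from Cd4 and Lck. The B cell list summed to 7.38 to 14.8 and 3.44 to 4.22 CPM, nearly all from Cd79b. Dendritic cell markers summed to 2.57 to 4.84 and 2.72 to 4.38 CPM, endothelial markers to 7.84 to 13.4 and 7.21 to 15.8 CPM, and adipocyte markers to 3.56 to 7.21 and 14.2 to 29.5 CPM. Mast cell or basophil markers summed to 0.192 to 0.821 and 0.181 to 0.463 CPM, and erythroid markers to 0.264 to 0.387 and 0.121 to 0.219 CPM. The part of other cell types in the results was not tested.

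With both cytokines, 7622 of 11380 genes tested were called at an adjusted p under 0.05 (67.0% of genes tested), 3711 of them higher (32.6%) and 3911 lower (34.4%). A change of at least 2-fold was seen for 1870 of the called genes (16.4%), with 1052 higher (9.24%) and 818 lower (7.19%). The 3 libraries of each group did not overlap for 2958 genes with the combination higher (26.0%) and for 2826 with it lower (24.8%). Each count of list members below is to be read against these shares. So is each remark that combination and untreated libraries do not overlap, and most named genes were picked for large changes, where this is likely. Each list median is to be read against -0.01, the median over all genes tested. In the values as deposited, without rescaling, 5181 genes were called (3554 higher, 1627 lower), with 1339 higher and 578 lower by at least 2-fold, and the median over all genes was 0.19. Without the replicate block 4872 genes were called. With untreated replicate 1 as the lone control, assumed to vary like the other groups, 6051 genes were called, and 1843 of the 1870 genes with at least 2-fold changes were among them, 4 of the 1870 with the other sign.

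**Figure D1:**
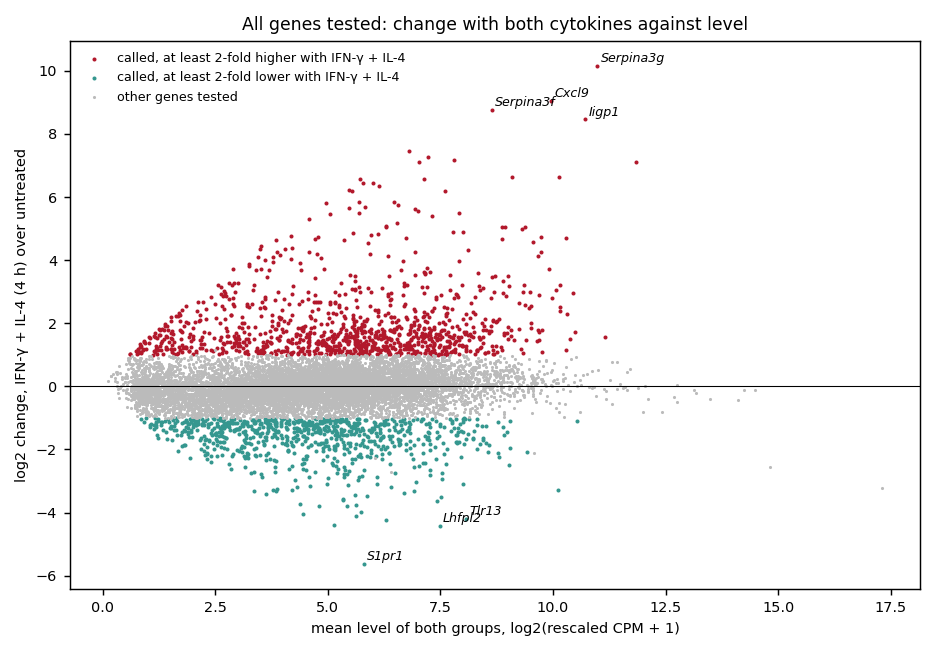
Change with both cytokines over untreated (vertical axis, log2 change) against the mean level of both groups (horizontal axis, log2 of rescaled CPM + 1), with a point for each of the 11380 genes tested. The 1052 red genes and 818 green genes were called with at least a 2-fold change, and the upward changes reach farther, to 10.16 for Serpina3g against -5.62 for S1pr1.

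The largest increase was that of Serpina3g, a serine protease inhibitor (chr12:104236245-104241939, plus strand, on GRCm38, as for all genes below). It had 4429.6, 3756 and 3956 CPM in the combination libraries, against 3.32, 3.02 and 1.52 CPM in untreated ones (log2 change 10.16 ± 0.19, limma adjusted p = 2.71e-16). Its neighbour Serpina3f had 1003, 589 and 790.3 CPM with both cytokines, against 0.953, 0.966 and 0.478 CPM untreated (8.77 ± 0.20, limma adjusted p = 3.34e-15). The groups were far apart for both genes, but the Serpina3 cluster holds near-identical copies that can share reads, so the single values are uncertain. Sectm1a, a secreted and transmembrane protein, was close to 0 without cytokine, at 0.109, 0.121 and 0.0410 CPM, and had 114, 96.3 and 100.05 CPM with the combination (6.58 ± 0.12, limma adjusted p = 2.71e-16). On recovered reads edgeR gave Sectm1a a log2 change of 10.43, since no pseudocount of 1 CPM holds it down there.

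S1pr1 had the largest decrease (chr3:115710433-115715072, minus strand). It encodes a receptor for sphingosine-1-phosphate and fell to 1.22, 1.04 and 1.35 CPM in combination libraries, against 116, 90.1 and 117 CPM in untreated ones (-5.62 ± 0.28, limma adjusted p = 2.56e-11). Lhfpl2, a tetraspan membrane protein, had 13.4, 12.3 and 20.3 CPM with both cytokines, against 381, 323 and 316 CPM without (-4.41 ± 0.25, limma adjusted p = 1.21e-10). The 3 libraries of each group were tight for both genes and did not overlap, which the choice of these genes required. Arrdc3, an arrestin relative that acts in the sorting of membrane receptors, had 1.02, 1.35 and 2.19 CPM, against 36.4, 33.3 and 51.8 CPM untreated (-4.04 ± 0.13). Dtx4, of the Deltex family of ubiquitin ligases, fell by 3.76 on the log2 scale, Zdhhc14, a palmitoyltransferase, by 3.60, and Fam214a by 3.73. The 15 largest decreases among genes with at least 5 CPM ran from -5.62 to -3.52, and the 15 largest increases from 6.19 to 10.16.

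**Figure D2:**
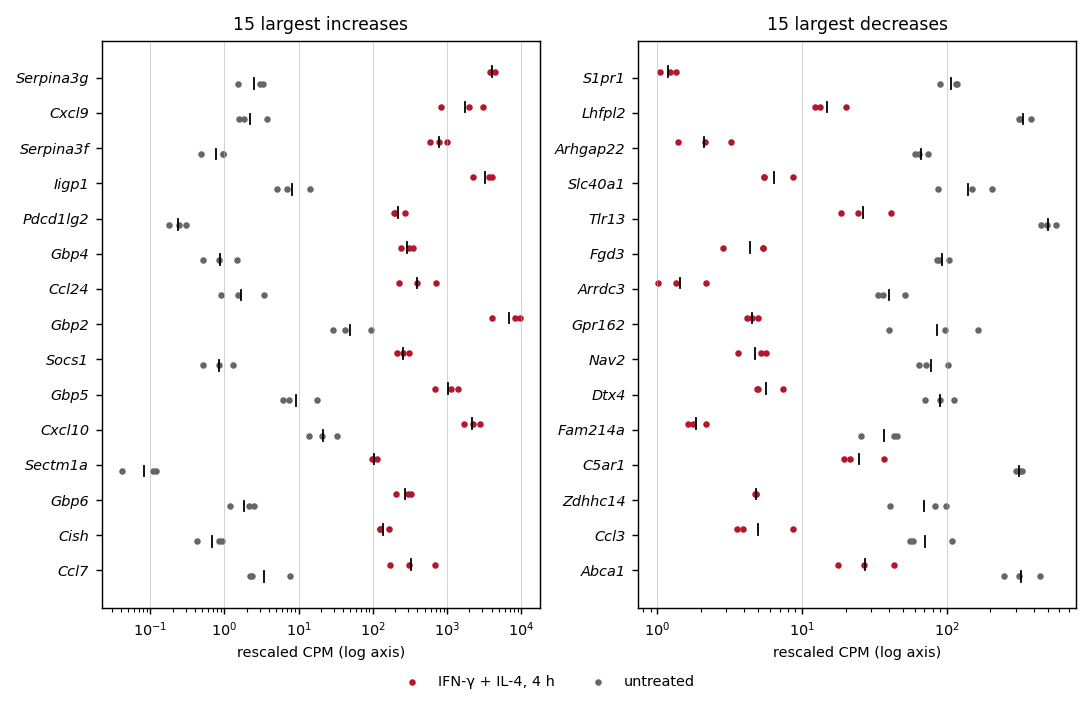
Rescaled CPM on a log axis in each library for the 15 largest increases (left panel) and the 15 largest decreases (right panel), with combination libraries as red points above untreated libraries in grey and a bar at the geometric mean. The red and grey points do not overlap for any gene, which the choice of these genes required.

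Among receptors and kinases of both pathways, 8 of 9 genes rose and 1 fell (median log2 change 0.45). Of these genes 5 were called higher without the replicate block. Il4ra, the IL-4 receptor chain (chr7:125552120-125579474, plus strand), had 2464, 1785 and 1915 CPM in combination libraries, against 229.8, 189.98 and 236 CPM in untreated ones (3.22 ± 0.18, limma adjusted p = 7.43e-11). Ifngr1, the ligand-binding chain of the IFN-γ receptor, was the member that fell, with 63.99, 35.8 and 54.6 CPM against 215, 118 and 187 CPM (-1.73 ± 0.08, limma adjusted p = 8.36e-12). The pair thus moved in opposite directions in every replicate number, Il4ra upward and Ifngr1 downward. Jak2, the kinase bound to Ifngr2, had 212, 179 and 152 CPM, against 52.6, 44.9 and 41.6 CPM untreated (1.94 ± 0.09). Jak3, which works with Il2rg, rose by 1.21 ± 0.12.

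Among the STAT genes, Stat2, a factor of type I interferon signalling, had 388, 518 and 472 CPM against 86.8, 227 and 129 CPM (1.73 ± 0.20), and untreated replicate 2 was the highest of the untreated libraries. Stat3 rose by 1.49 ± 0.11 and Stat5a by 1.48 ± 0.09. Stat6, the transcription factor of IL-4, fell, at -0.51 ± 0.07 (limma adjusted p = 1.17e-05). It is named here after its values were seen, outside the rule of choice, as is Abcg1 below.

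Feedback inhibitors of cytokine signalling had 9 of 15 members up and 3 down (median 0.71), and the SH2-domain inhibitors Socs1, Cish, Socs3 and Socs2 led them. Socs1, which binds and blocks JAK kinases (chr16:10782240-10785536, minus strand), had 256, 305 and 209 CPM in combination libraries, against 1.31, 0.845 and 0.519 CPM in untreated ones (7.09 ± 0.19, limma adjusted p = 2.75e-14). Cish, an inhibitor of STAT5 signalling (chr9:107296026-107302784, plus strand), had 165, 126 and 126 CPM, against 0.844, 0.422 and 0.916 CPM untreated (6.34 ± 0.20, limma adjusted p = 1.61e-13). Every combination library of both genes stood far above every untreated library. Socs3, an inhibitor of the gp130 receptors, had 279, 116 and 151 CPM, against 17.8, 7.79 and 13.3 CPM (3.68 ± 0.27). Socs2, which restrains growth hormone signalling, reached 14.7, 6.79 and 9.45 CPM, against 0.653, 0.302 and 0.492 CPM untreated (2.88 ± 0.13). Sh2b3 (0.11 ± 0.08) and Socs5 (0.03 ± 0.11) did not pass the test (limma adjusted p = 0.245 and 0.79).

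Promoter windows of 6 of the raised genes are shown because they hold the short elements that STAT and IRF factors are known to bind. Each window runs from 250 bases before to 50 bases after a transcription start, 5′ to 3′ on the gene's strand, and comes from RefSeq on GRCm38.p6. Capitals mark matches, searched on both strands, to TTCNNNGAA (the element that dimers of STAT factors bind, called GAS-like here), the same TTC and GAA with 4 bases of any kind between them (the wider spacing preferred by Stat6, STAT6-like), and a pair of GAAA with 2 bases of any kind between them, or a pair of TTTC on the other strand (the core of the interferon-stimulated response element, ISRE-like). Over all 32851 promoter windows of the reference table, 8.30% hold the first, 6.95% the second and 3.44% the third. The Socs1 window (chr16:10785487-10785786, minus strand) has a pair of overlapping ISRE-like matches, the first bases of which lie 83 and 77 bases upstream of the start. The Cish window (chr9:107296409-107296708, plus strand) has a pair of GAS-like matches that do not overlap, from base 1 and base 12 after the start. The Irf1 window (chr11:53769764-53770063, plus strand) is the upstream one of its 2 starts in the table, with a GAS-like match 90 bases upstream. The Igtp window (chr11:58199306-58199605, plus strand) has a GAS-like match 45 bases upstream and an ISRE-like match 34 bases upstream, and that of Serpina3g (chr12:104235897-104236196, plus strand) a GAS-like match 33 bases upstream. The Pdcd1lg2 window (chr19:29410669-29410968, plus strand) has a STAT6-like match 82 bases upstream. These windows were picked for their matches after the changes were known, and a match describes letters and not a bound site.
Socs1: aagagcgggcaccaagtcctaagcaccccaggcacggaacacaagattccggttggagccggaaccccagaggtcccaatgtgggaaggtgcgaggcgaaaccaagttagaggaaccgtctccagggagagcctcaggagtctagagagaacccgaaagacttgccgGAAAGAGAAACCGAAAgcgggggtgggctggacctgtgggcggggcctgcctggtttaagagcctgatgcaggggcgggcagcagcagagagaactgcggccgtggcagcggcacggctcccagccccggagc
Cish: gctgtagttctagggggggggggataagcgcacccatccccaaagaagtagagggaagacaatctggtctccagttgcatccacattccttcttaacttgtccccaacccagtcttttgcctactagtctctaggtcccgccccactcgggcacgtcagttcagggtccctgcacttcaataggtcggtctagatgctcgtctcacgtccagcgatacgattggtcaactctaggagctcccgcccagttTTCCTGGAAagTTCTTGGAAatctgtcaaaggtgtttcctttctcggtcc
Irf1: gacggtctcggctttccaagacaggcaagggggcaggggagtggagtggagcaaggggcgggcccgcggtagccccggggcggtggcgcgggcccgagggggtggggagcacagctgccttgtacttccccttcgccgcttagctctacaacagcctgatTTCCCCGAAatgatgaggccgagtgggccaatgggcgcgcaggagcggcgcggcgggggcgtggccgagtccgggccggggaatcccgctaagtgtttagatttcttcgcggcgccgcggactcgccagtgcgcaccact
Igtp: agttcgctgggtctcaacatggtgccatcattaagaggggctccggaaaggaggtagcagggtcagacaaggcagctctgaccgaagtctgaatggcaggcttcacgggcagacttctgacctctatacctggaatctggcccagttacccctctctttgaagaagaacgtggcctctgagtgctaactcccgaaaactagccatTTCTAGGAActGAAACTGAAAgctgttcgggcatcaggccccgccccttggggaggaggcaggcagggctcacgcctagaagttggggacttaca
Serpina3g: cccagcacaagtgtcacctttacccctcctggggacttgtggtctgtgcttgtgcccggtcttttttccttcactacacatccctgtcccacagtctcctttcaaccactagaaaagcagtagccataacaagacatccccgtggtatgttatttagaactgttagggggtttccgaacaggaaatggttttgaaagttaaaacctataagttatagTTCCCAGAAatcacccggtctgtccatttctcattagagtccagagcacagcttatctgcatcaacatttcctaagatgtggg
Pdcd1lg2: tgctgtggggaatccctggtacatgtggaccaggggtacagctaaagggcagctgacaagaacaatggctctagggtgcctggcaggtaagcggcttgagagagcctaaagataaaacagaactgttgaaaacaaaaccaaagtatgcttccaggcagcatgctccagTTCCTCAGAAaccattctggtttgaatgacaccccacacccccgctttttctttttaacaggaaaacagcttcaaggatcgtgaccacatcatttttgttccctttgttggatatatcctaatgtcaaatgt

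Interferon regulatory factors had 7 of 8 tested members up (median 1.88). Irf1, an early target of IFN-γ whose window above holds a GAS-like match (chr11:53770014-53778374, plus strand), had 2794, 2069 and 2404 CPM with both cytokines, against 122, 77.8 and 82.8 CPM without (4.69 ± 0.11, limma adjusted p = 3.05e-15). Irf4, a factor of the IL-4 response (chr13:30749226-30766976, plus strand), had 154, 65.2 and 126 CPM, against 5.55, 4.04 and 5.47 CPM (4.19 ± 0.17, limma adjusted p = 2.29e-12). A factor tied to each cytokine was thus high in the same libraries, and the groups overlapped for neither. Irf7, which drives type I interferon genes, rose by 2.82 ± 0.17, and Irf8, a factor of the myeloid lineage, by 2.48 ± 0.09. Irf9, a DNA-binding partner of Stat2, had 74.3, 78.2 and 66.1 CPM against 68.5, 82.02 and 65.5 CPM and was not called (0.02 ± 0.08, limma adjusted p = 0.849).

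AP-1, ATF and C/EBP factors, dimeric bZIP regulators, had 15 of 17 members up, 13 of them at least 2-fold, and 1 down (median 1.54, or 1.03 against untreated replicate 1 alone). Batf3, known for its part in dendritic cell development, had 127, 104 and 101 CPM, against 1.69, 0.845 and 0.984 CPM untreated (5.70 ± 0.16, limma adjusted p = 3.46e-14). Batf2, an interferon-induced member, had 312, 179 and 225 CPM, against 3.87, 4.35 and 3.08 CPM (5.62 ± 0.27). The bZIP repressor Nfil3 rose by 3.49 ± 0.21. Among other transcription factors of activation 14 of 25 rose and 7 fell. On this list 9 were called higher without the replicate block. Egr2, an early growth response factor, had 176, 61.9 and 100.4 CPM with the combination, against 5.85, 2.47 and 2.69 CPM (4.55 ± 0.46), and Myc, a driver of growth and ribosome production, had 40.2, 28.3 and 26.4 CPM, against 3.40, 4.10 and 2.42 CPM (2.92 ± 0.13). Ahr, the aryl hydrocarbon receptor, rose by 1.78 ± 0.14. Bhlhe41, a basic helix-loop-helix repressor, had 15.1, 8.29 and 13.8 CPM, against 124, 67.95 and 92.7 CPM (-2.84 ± 0.13), the largest decrease on that list. Prdm1, a zinc-finger repressor, was not called (-0.44 ± 0.23, limma adjusted p = 0.105), but it was called lower without untreated replicate 2 (-0.61, limma adjusted p = 0.0441), without replicate 2 in all groups (limma adjusted p = 0.000178) and in the 6 libraries alone (limma adjusted p = 0.0342).

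Guanylate-binding proteins and immunity-related GTPases, interferon-induced GTPases that attack the vacuoles of intracellular microbes, had the highest medians of all lists. All 11 tested guanylate-binding proteins rose at least 2-fold (median 5.04), as did all 7 tested immunity-related GTPases (median 4.99). Gbp2 had 9573, 4052 and 8245 CPM in combination libraries, against 94.6, 42.2 and 28.9 CPM in untreated ones (7.10 ± 0.31, limma adjusted p = 4.52e-12). Igtp had 1437, 842 and 1409 CPM, against 39.6, 43.9 and 28.4 CPM (4.99 ± 0.30, limma adjusted p = 2.64e-10). Replicate 2 was the lowest combination library for both, and every combination value stood above every untreated value. Gbp4 rose by 7.27 ± 0.22, Gbp5 by 6.63 ± 0.17, Gbp6 by 6.56 ± 0.29, Iigp1 by 8.46 ± 0.27, Tgtp1 by 6.17 ± 0.30 and Tgtp2 by 5.74 ± 0.29. Members of these families are so alike that the counting may have split or lost reads between them, which leaves the value of any one gene uncertain. Gvin1 and Irgc1 of the same list were under the filter on low values.

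Genes of MHC class I presentation had 20 of 22 members up (median 1.66). Tap1, a subunit of the peptide transporter of the endoplasmic reticulum, had 834, 692 and 766 CPM, against 59.5, 83.5 and 58.6 CPM untreated (3.50 ± 0.28, limma adjusted p = 9.09e-09). Nlrc5, the transactivator of class I genes, had 493, 337 and 411 CPM, against 52.9, 67.3 and 51.9 CPM (2.82 ± 0.28). Tap2, the other transporter subunit, rose by 2.47 ± 0.15, and Tapbpl, a peptide editor, by 2.58 ± 0.10. Of 31 genes of the constitutive proteasome 21 rose, but 2 by 2-fold or more (median 0.32), and those were the core subunits Psma3 (1.63 ± 0.11) and Psma5 (1.20 ± 0.10). Of these genes 12 were called higher without the replicate block. The chaperones Canx (-0.05 ± 0.09) and Pdia3 (0.22 ± 0.11), which fold class I chains, did not pass the test (limma adjusted p = 0.646 and 0.0777). Pdia3 was called higher without combination replicate 2 (0.33, limma adjusted p = 0.0162) and without replicate 2 in all groups (0.32, limma adjusted p = 0.00338).

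MHC class II genes changed less: 9 of 11 rose, 3 of them at least 2-fold (median 0.54). On this list 3 were called higher without the replicate block and 5 against untreated replicate 1 alone. Ciita, their master regulator, had 73.3, 30.7 and 63.6 CPM, against 13.6, 3.08 and 9.92 CPM (2.62 ± 0.11, limma adjusted p = 4.36e-12). Cd74, the invariant chain, had 545, 147 and 256 CPM, against 294, 58.1 and 143 CPM, so the groups overlapped while each combination library exceeded the untreated library of its number (1.02 ± 0.12). H2-Ab1, a class II chain, showed the same pattern with 83.4, 33.8 and 42.7 CPM against 67.9, 14.7 and 29.8 CPM (0.65 ± 0.16). Both calls rest on the replicate pairing: without the block the limma adjusted p was 0.373 for Cd74 and 0.496 for H2-Ab1. Against untreated replicate 1 alone that of H2-Ab1 was 0.118.

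Ligands of costimulation and checkpoints gave 8 of 12 up and 3 down. Pdcd1lg2, the gene of PD-L2, a ligand of PD-1 (chr19:29410919-29471161, plus strand), had 268, 195 and 198 CPM, against 0.245, 0.302 and 0.178 CPM untreated (7.46 ± 0.21, limma adjusted p = 4.39e-14), and edgeR on recovered reads gave 10.04. Cd274, which encodes the other PD-1 ligand, PD-L1 (chr19:29367455-29388095, plus strand), had 1619.9, 1013 and 1234 CPM, against 59.04, 26.9 and 31.5 CPM (5.06 ± 0.22, limma adjusted p = 3.69e-12). Both ligands of PD-1, neighbours on chromosome 19, were therefore high together. The receptor Cd40, through which T cells activate macrophages, had 533, 353 and 384 CPM, against 18.1, 11.3 and 10.4 CPM (4.91 ± 0.19), and Cd83, a maturation marker, rose by 2.79 ± 0.23. Tnfsf9, the ligand of 4-1BB, was not called (0.03 ± 0.30, limma adjusted p = 0.945).

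Of 36 antiviral genes known as targets of type I interferon 34 rose, 29 at least 2-fold (median 1.74). Zbp1, a sensor of Z-form nucleic acids, had 448, 513 and 393 CPM, against 23.7, 50.03 and 18.3 CPM (3.96 ± 0.31, limma adjusted p = 6.10e-09). Ifit2, which restricts viral RNA translation, had 1001, 1693 and 748 CPM, against 199, 269.8 and 106 CPM (2.59 ± 0.25). In each group replicate 2 had the highest value of both genes, and no untreated value reached a combination value. Rsad2, which encodes viperin, had 99.4, 403 and 80.8 CPM, against 115, 142 and 68.02 CPM, with overlapping groups and no call (0.51 ± 0.25, limma adjusted p = 0.0798). Without combination replicate 1 its log2 change was 0.80 and it was called higher (limma adjusted p = 0.0113), as it was without untreated replicate 3, without replicate 1 in all groups and as deposited (limma adjusted p = 0.0469, 0.00867 and 0.0155). Among sensors of nucleic acids and inflammasome parts 12 of 19 rose and 6 fell. Of these genes 3 were called lower as deposited and 2 without the replicate block. Tmem173, which encodes the DNA-response adaptor STING, had 685, 497 and 578 CPM, against 50.9, 63.4 and 79.6 CPM (3.17 ± 0.14). Casp4, the caspase that detects cytosolic lipopolysaccharide, rose by 3.14 ± 0.16, and Nod1, a peptidoglycan sensor, by 3.15 ± 0.14. Nod2, its relative, was not called (0.02 ± 0.28, limma adjusted p = 0.952).

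Cell death regulators had 17 of 26 members up and 4 down (median 0.65). On this list 11 were called higher without the replicate block, and lower calls numbered 2 as deposited. Mlkl, the executor of necroptosis, had 153, 144 and 127 CPM, against 14.97, 25.6 and 14.1 CPM (2.93 ± 0.24, limma adjusted p = 1.00e-08). Fas, a death receptor, had 82.6, 62.8 and 68.02 CPM, against 14.4, 9.23 and 12.3 CPM (2.49 ± 0.18). The receptors for TNF went opposite ways. Tnfrsf1a rose to 621, 481 and 579 CPM in combination libraries, against 149.5, 137 and 153 CPM untreated (1.92 ± 0.13), and Tnfrsf1b fell to 156, 128 and 128 CPM, against 692, 269 and 622 CPM (-1.83 ± 0.18).

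Of 16 chemokines tested 8 rose, each at least 2-fold, and 6 fell (median 1.60). Cxcl9 (chr5:92321347-92328079, minus strand) and Cxcl10 attract activated T cells through CXCR3. Cxcl9 had 3101, 830.2 and 1997 CPM with both cytokines, against 3.78, 1.81 and 1.56 CPM without (9.05 ± 0.32, limma adjusted p = 4.53e-13), and Cxcl10 had 2773, 2222 and 1683 CPM, against 32.9, 20.5 and 13.8 CPM (6.63 ± 0.25). Ccl24, an eosinophil chemokine of the IL-4 response (chr5:135569937-135573049, minus strand), had 708, 223 and 399 CPM, against 3.40, 0.905 and 1.504 CPM (7.18 ± 0.19, limma adjusted p = 2.75e-14). Ccl7, a monocyte chemokine, had 305, 681 and 169 CPM, against 2.20, 7.54 and 2.35 CPM (6.19 ± 0.25). Chemokines of both cytokines were therefore abundant in the same libraries. Ccl3, which attracts many leukocytes, fell to 8.69, 3.58 and 3.90 CPM, against 108, 55.6 and 58.03 CPM (-3.57 ± 0.32, limma adjusted p = 3.95e-08). Ccl5, which attracts T cells and monocytes, had 12.8, 4.37 and 3.27 CPM, against 14.998, 4.22 and 2.84 CPM, and was not called (-0.01 ± 0.32, limma adjusted p = 0.983).

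Other cytokines and growth factors had 11 of 21 members up and 4 down, while 9 listed ones, Il6 and Il12b among them, were under the filter on low values. Of those tested 2 were called lower without the replicate block. Tnfsf10, the death ligand TRAIL, had 144, 154 and 154 CPM, against 10.9, 8.03 and 5.17 CPM (4.12 ± 0.23, limma adjusted p = 1.13e-10). Hbegf, a ligand of the EGF receptor, had 38.2, 20.7 and 15.9 CPM, against 0.653, 0.302 and 0.314 CPM (4.11 ± 0.24). Csf1, the macrophage growth factor, had 101, 82.1 and 72.2 CPM, against 14.6, 11.9 and 9.24 CPM (2.74 ± 0.16). Each of these was higher in all 3 combination libraries than in any untreated library, as were 26.0% of all genes tested. Igf1, a growth factor of tissue macrophages, was not called (0.06 ± 0.10, limma adjusted p = 0.596), but it was without replicate 2 in all groups (0.24, limma adjusted p = 0.0302). Complement genes had 9 of 11 members up (median 0.54). Of these genes 5 were called higher without the replicate block. C3, the central component, had 2675, 595 and 1347 CPM, against 198, 34.3 and 55.1 CPM (4.14 ± 0.18, limma adjusted p = 5.00e-12), with values that differed several-fold between replicate numbers in both groups. Cfb, factor B of the alternative pathway, had 53.7, 43.7 and 25.1 CPM, against 7.40, 3.38 and 2.58 CPM (2.97 ± 0.18).

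Of 29 tested markers of alternative activation 21 rose, 19 at least 2-fold, and 2 fell (median 1.56). Flt1, a receptor for VEGF, had 102, 59.5 and 95.02 CPM with both cytokines, against 0.681, 0.724 and 0.601 CPM without (5.66 ± 0.18, limma adjusted p = 1.18e-13). Rasgrp1, a Ras exchange factor, had 52.6, 30.1 and 54.2 CPM, against 0.218, 0.121 and 0.123 CPM (5.29 ± 0.29). Cdh1, which encodes E-cadherin, had 9.68, 14.6 and 14.3 CPM, against 0.0544, 0 and 0.0410 CPM (3.73 ± 0.15), and Tmem26, a membrane protein, rose by 4.11 ± 0.13. These genes were nearly silent in untreated libraries. Arg1, the arginase that marks alternative activation (chr10:24915221-24927484, minus strand), had 10.2, 38.6 and 8.27 CPM, against 0.0272, 0.543 and 0.205 CPM, and replicate 2 was the highest library of its group in both (3.69 ± 0.40, limma adjusted p = 3.92e-07). Cd36, a scavenger receptor, was not called (-0.16 ± 0.14, limma adjusted p = 0.33).

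Effectors of classical activation had 16 of 21 tested members up and 1 down (median 1.81). Irg1, also named Acod1, which makes the antimicrobial metabolite itaconate, had 372, 368 and 194 CPM, against 12.5, 4.83 and 3.46 CPM (5.41 ± 0.33, limma adjusted p = 2.62e-10). Fam26f, an interferon-induced membrane protein, had 581, 409 and 422 CPM, against 19.1, 4.95 and 8.13 CPM (5.50 ± 0.21). Nos2, which makes nitric oxide from arginine (chr11:78920787-78960254, plus strand), had 6.76, 4.96 and 3.68 CPM, against 0.109, 0 and 0 CPM (2.54 ± 0.21, limma adjusted p = 1.73e-08). Arg1 and Nos2, which both use arginine, thus rose together in the combination libraries. The arginine carrier Slc7a2 rose with them, to 37.1, 48.1 and 54.4 CPM, against 2.40, 2.60 and 5.93 CPM (3.42 ± 0.15), and Gch1, which makes a cofactor of Nos2, rose by 1.81 ± 0.18. Of 12 tested genes of polyamine and arginine metabolism 6 rose and 4 fell. On this list 2 were called lower as deposited and 1 without the replicate block. Srm, spermidine synthase, rose by 1.76 ± 0.13. The NADPH oxidase subunits Cybb (-0.09 ± 0.10) and Cyba (0.07 ± 0.11) did not pass the test (limma adjusted p = 0.426 and 0.607).

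In tryptophan and NAD metabolism 7 of 11 tested genes rose and 2 fell, while Ido1, Ido2, Tdo2 and Haao were under the filter on low values. Wars, the tryptophan tRNA synthetase, had 499, 341 and 533 CPM, against 47.6, 51.1 and 43.6 CPM (3.22 ± 0.21, limma adjusted p = 6.19e-10). Kmo, an enzyme of the kynurenine pathway, had 71.7, 65.6 and 47.5 CPM, against 11.6, 3.80 and 6.73 CPM (2.99 ± 0.17), and Kynu, which acts after it, 18.9, 8.26 and 17.6 CPM, against 2.48, 0.785 and 1.41 CPM (2.62 ± 0.13). Nampt, which recycles nicotinamide to NAD, had 2148, 1516 and 1637 CPM, against 265, 294 and 204 CPM (2.79 ± 0.15). The groups did not overlap for any of these 4 genes, as for 26.0% of all genes tested with the combination higher.

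Receptors for chemoattractants had 10 of 16 tested members down, 7 at least 2-fold, and 5 up (median -0.66). Of these genes 2 were called higher without the replicate block. C5ar1, the receptor for the complement fragment C5a (chr7:16246743-16259540, minus strand), fell to 19.4, 36.97 and 21.3 CPM, against 299, 331 and 323 CPM untreated (-3.62 ± 0.17, limma adjusted p = 8.13e-12). Cx3cr1, the fractalkine receptor, had 1.30, 6.25 and 1.88 CPM, against 22.9, 27.5 and 54.1 CPM (-3.20 ± 0.31), and without replicate 2 in all groups its log2 change was -3.82. Together with S1pr1, described above, receptors for a lipid, a complement fragment and a chemokine thus fell. Ltb4r1, the high-affinity receptor for leukotriene B4, went the other way, with 23.8, 36.05 and 21.1 CPM against 0.572, 0.302 and 0.383 CPM (4.27 ± 0.16, limma adjusted p = 8.25e-13). After rescaling it was the only member to rise 2-fold or more, while as deposited 4 members did.

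Other receptors coupled to G proteins went both ways, 11 of 26 up and 9 down. Hcar2, the receptor for niacin and ketone bodies, had 126, 65.5 and 78.00 CPM, against 4.001, 1.27 and 1.48 CPM (4.85 ± 0.26, limma adjusted p = 5.45e-11). Lpar6, a receptor for lysophosphatidic acid, fell to 5.07, 5.14 and 13.3 CPM, against 83.6, 71.3 and 109 CPM (-3.43 ± 0.21). Gpr34, a receptor for lysophosphatidylserine, had 2.80, 0.942 and 1.90 CPM, against 55.5, 9.05 and 34.6 CPM, where replicate 2 was lowest in both groups (-3.29 ± 0.21). The orphan receptor Gpr162 fell by 3.98 on the log2 scale.

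Toll-like receptors and their adaptors gave 5 of 21 up and 9 down. On this list 3 were called higher without the replicate block. Tlr13, a receptor for bacterial ribosomal RNA (chrX:106143204-106160493, plus strand), fell to 18.5, 41.4 and 24.4 CPM, against 494, 573 and 451 CPM (-4.19 ± 0.14, limma adjusted p = 1.61e-13). Tlr2, a receptor for bacterial lipoproteins, had 43.98, 17.9 and 29.7 CPM, against 332, 73.7 and 217 CPM (-2.57 ± 0.21). In contrast Tlr3, a receptor for double-stranded RNA, had 106, 145 and 81.6 CPM, against 17.2, 23.8 and 17.3 CPM (2.43 ± 0.10), and the shared adaptor Myd88 rose by 1.80 ± 0.10. Tlr4, the lipopolysaccharide receptor, was not called (0.03 ± 0.10, limma adjusted p = 0.823), but it was called higher without replicate 2 in all groups (0.20, limma adjusted p = 0.0362).

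Among Fc and C-type lectin receptors 7 of 18 rose, each at least 2-fold, and 7 fell. Of these genes 3 were called lower as deposited and 3 without the replicate block. Fcgr4, an activating receptor for IgG, had 1082, 884 and 866 CPM, against 76.4, 105 and 70.02 CPM (3.49 ± 0.24, limma adjusted p = 1.46e-09). Fcgr2b, the inhibitory receptor for IgG, had 1559, 929.6 and 1228 CPM, against 319, 118 and 235 CPM (2.54 ± 0.18). Clec7a, which encodes the β-glucan receptor dectin-1, had 1482, 1047 and 852 CPM, against 243, 83.1 and 131 CPM (2.98 ± 0.21). Fcer1g, the signalling chain shared by the activating Fc receptors, was not called (-0.00 ± 0.08, limma adjusted p = 0.98). Scavenger and efferocytosis receptors had 9 of 13 tested members down and 2 up (median -0.54). On this list 4 were called lower as deposited and 3 without the replicate block. Cd163, the haemoglobin scavenger receptor, fell by 1.36 on the log2 scale. Msr1, the macrophage scavenger receptor, had 53.9, 146 and 46.8 CPM, against 98.4, 238 and 105 CPM (-0.91 ± 0.13), with overlapping groups, and its call was lost without the replicate block (limma adjusted p = 0.3).

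Factors and receptors of macrophage identity had 8 of 20 members up and 9 down, with Csf1r (-0.00 ± 0.10) and Adgre1 (0.05 ± 0.08), which encodes F4/80, not called (limma adjusted p = 0.98 and 0.589). Of these genes 5 were called higher against untreated replicate 1 alone, and lower calls numbered 2 as deposited and 2 without the replicate block. Tfec, a factor related to Mitf, had 338, 311 and 239 CPM, against 43.4, 48.5 and 35.8 CPM (2.77 ± 0.16, limma adjusted p = 1.16e-10). Cebpa, a myeloid lineage factor, had 201, 163 and 194 CPM, against 113, 35.7 and 61.9 CPM (1.54 ± 0.22). Csf2rb, the shared chain of the GM-CSF, IL-3 and IL-5 receptors, rose by 1.87 ± 0.12, and Csf3r, the G-CSF receptor, by 1.53 ± 0.14. Of paired inhibitory and activating receptors 5 of 16 rose and 7 fell. On this list 2 were called higher without the replicate block. Within the Cd300 family Cd300lf rose by 2.25 ± 0.20 while Cd300a, an inhibitory receptor, fell to 109.5, 53.1 and 75.8 CPM, against 432, 199 and 331 CPM (-1.99 ± 0.09).

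Genes of cholesterol efflux and lipid handling had 15 of 24 members down, 8 at least 2-fold, and 2 up (median -0.65). Abca1, the exporter that loads cholesterol onto apolipoproteins (chr4:53030787-53159895, minus strand), fell to 43.1, 26.9 and 17.8 CPM, against 437, 250.3 and 317 CPM untreated (-3.52 ± 0.19, limma adjusted p = 4.92e-11). Mylip, a ligase that degrades the LDL receptor and a target of the sterol receptor LXR like Abca1, had 12.7, 12.2 and 7.55 CPM, against 99.4, 50.9 and 58.2 CPM (-2.55 ± 0.17). Soat1, which esterifies cholesterol for storage, had 136, 115 and 132 CPM, against 414, 350.5 and 459 CPM (-1.66 ± 0.07), and Fabp4, a fatty-acid carrier that also stands on the adipocyte list, fell by 2.12. All 4 were lower in every combination library than in any untreated one, as were 24.8% of all genes tested. Abcg1 of the same list went the other way and was called higher, by 1.30, the list's only rise of at least 2-fold. Apoe, the apolipoprotein, was not called (-0.12 ± 0.19, limma adjusted p = 0.581). Cholesterol synthesis had 11 of 21 members down and 1 up (median -0.33), but limma called 0 lower without the replicate block, also 0 at an unadjusted p under 0.05, 4 against untreated replicate 1 alone and 4 as deposited. Hmgcs1, an early enzyme of that pathway, had 72.00, 119 and 118 CPM, against 95.2, 369.8 and 221 CPM (-0.97 ± 0.18), with overlapping groups and a limma adjusted p of 0.121 without the block. Pmvk, phosphomevalonate kinase, was the member that rose (1.86 ± 0.22).

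Of 35 lysosomal genes 12 fell and 7 rose, and the proteases Ctsb (-0.10 ± 0.11) and the activator Psap (-0.10 ± 0.13) did not pass the test (limma adjusted p = 0.443 and 0.485). Of these genes 2 were called higher without the replicate block and 4 against untreated replicate 1 alone, and lower calls numbered 4 as deposited and 5 without the replicate block. Sgsh, a heparan sulphate hydrolase, fell to 31.3, 34.5 and 38.1 CPM, against 116, 92.3 and 120.4 CPM (-1.63 ± 0.13), and Atp6v1b2, a subunit of the proton pump, rose to 1458, 1216 and 989 CPM, against 520.04, 389.9 and 404 CPM (1.47 ± 0.10). No other member of this list was called with a change of at least 2-fold.

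In iron handling 5 of 15 tested genes rose and 7 fell. On this list 3 were called higher without the replicate block, and lower calls numbered 4 as deposited. Slc40a1, which encodes ferroportin, the iron exporter (chr1:45908068-45926523, minus strand), fell to 5.43, 8.64 and 5.48 CPM, against 206, 87.4 and 149.9 CPM (-4.25 ± 0.27, limma adjusted p = 4.59e-10). Tfrc, the transferrin receptor that takes iron up, rose to 755, 344 and 381 CPM, against 164, 64.9 and 67.7 CPM (2.35 ± 0.12, limma adjusted p = 2.93e-11). The exporter thus fell and the importer rose. Hmox1, which frees iron from haem, had 47.3, 66.7 and 31.2 CPM, against 419, 292 and 253 CPM (-2.74 ± 0.15). Hmox1 also belongs to the oxidative stress list, in which 13 of 22 members fell, 7 at least 2-fold, and 4 rose (median -0.33). Of these genes 1 was called higher without the replicate block and 2 against untreated replicate 1 alone, and lower calls numbered 8 as deposited. Nfe2l2, which encodes NRF2, the main factor of that response, had 142, 72.8 and 123 CPM, against 531, 286 and 392 CPM (-1.84 ± 0.15, limma adjusted p = 1.00e-08), and Srxn1, sulfiredoxin, fell by 2.07. Sod2, the mitochondrial superoxide dismutase, rose to 341, 154 and 157 CPM, against 91.4, 44.1 and 44.7 CPM (1.82 ± 0.21). Amino-acid carriers had 8 of 16 members down and 3 up, and Slc43a2, a carrier of large neutral amino acids, had 169, 125 and 152 CPM, against 1151, 499 and 1012 CPM (-2.49 ± 0.16). Of the carriers 1 was called higher without the replicate block.

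Glycolysis and lactate genes had 11 of 24 members up and 4 down (median 0.16). On this list 1 was called lower as deposited, 1 without the replicate block and 2 against untreated replicate 1 alone. Slc2a1, the glucose carrier GLUT1, had 149, 138 and 128 CPM, against 33.1, 34.1 and 31.8 CPM (2.03 ± 0.14, limma adjusted p = 9.79e-10). Pfkp, a phosphofructokinase, had 353, 329 and 271 CPM, against 44.8, 112 and 59.6 CPM (2.22 ± 0.23). The carrier Slc2a3, GLUT3, fell to 2.75, 5.06 and 3.27 CPM, against 20.3, 21.3 and 24.8 CPM (-2.33 ± 0.13). Gapdh (0.14 ± 0.08) and Pgk1 (0.18 ± 0.12), of the lower part of the pathway, did not pass the test (limma adjusted p = 0.118 and 0.198). Pgk1 was called higher without combination replicate 2 (0.31, limma adjusted p = 0.0311) and without replicate 2 in all groups (limma adjusted p = 0.0258), and Gapdh without untreated replicate 3 (0.21, limma adjusted p = 0.0388). Of 24 genes of the tricarboxylic acid cycle 5 rose and 7 fell. Of these genes 2 were called higher without the replicate block, and lower calls numbered 1 as deposited and 3 without the replicate block. Idh1, the cytosolic isocitrate dehydrogenase, fell to 82.3, 123 and 109 CPM, against 370.1, 336 and 372 CPM (-1.79 ± 0.11), and Fh1, fumarase, rose to 258, 195 and 239 CPM, against 72.8, 66.02 and 70.7 CPM (1.70 ± 0.09). In nucleotide synthesis Prps1, which makes the ribose precursor, had 89.8, 72.5 and 84.1 CPM, against 7.32, 11.4 and 7.97 CPM (3.09 ± 0.18, limma adjusted p = 1.39e-10), while 5 of 24 members of that list rose and 5 fell. On this list 3 were called higher without the replicate block, and lower calls numbered 1 as deposited, 1 without the replicate block and 3 against untreated replicate 1 alone.

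Subunits of oxidative phosphorylation and cytosolic ribosomal proteins had small changes. Of 35 subunits 20 rose with a median log2 change of 0.22, led by cytochrome c (Cycs, 1.65 ± 0.12). Of these genes 13 were called higher as deposited, 9 without the replicate block and 8 against untreated replicate 1 alone. Ribosomal proteins had 22 of 32 up, none by 2-fold (median 0.27). On this list 12 were called higher without the replicate block and 3 against untreated replicate 1 alone. Nucleolar genes of ribosome biogenesis had 25 of 35 up, 8 at least 2-fold (median 0.55). Noc4l, a nucleolar protein, had 111, 121 and 94.6 CPM, against 12.2, 14.7 and 11.7 CPM (2.99 ± 0.12, limma adjusted p = 1.50e-12), and Rrs1, a ribosome assembly factor, 58.2, 48.8 and 41.3 CPM, against 15.4, 10.5 and 9.65 CPM (1.99 ± 0.10). Ncl, nucleolin, was not called (0.00 ± 0.07, limma adjusted p = 0.976). The unfolded protein and amino-acid stress response had 15 of 24 members up and 1 down. Pdia4, a folding enzyme of the endoplasmic reticulum, had 394, 349.9 and 494 CPM, against 103, 136 and 135 CPM (1.72 ± 0.11), and Manf, a protein induced by stress there, rose by 1.64 ± 0.14. Heat shock genes had 10 of 14 tested members up, none by 2-fold, and 1 down, while as deposited 2 rose at least 2-fold.

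**Figure D3:**
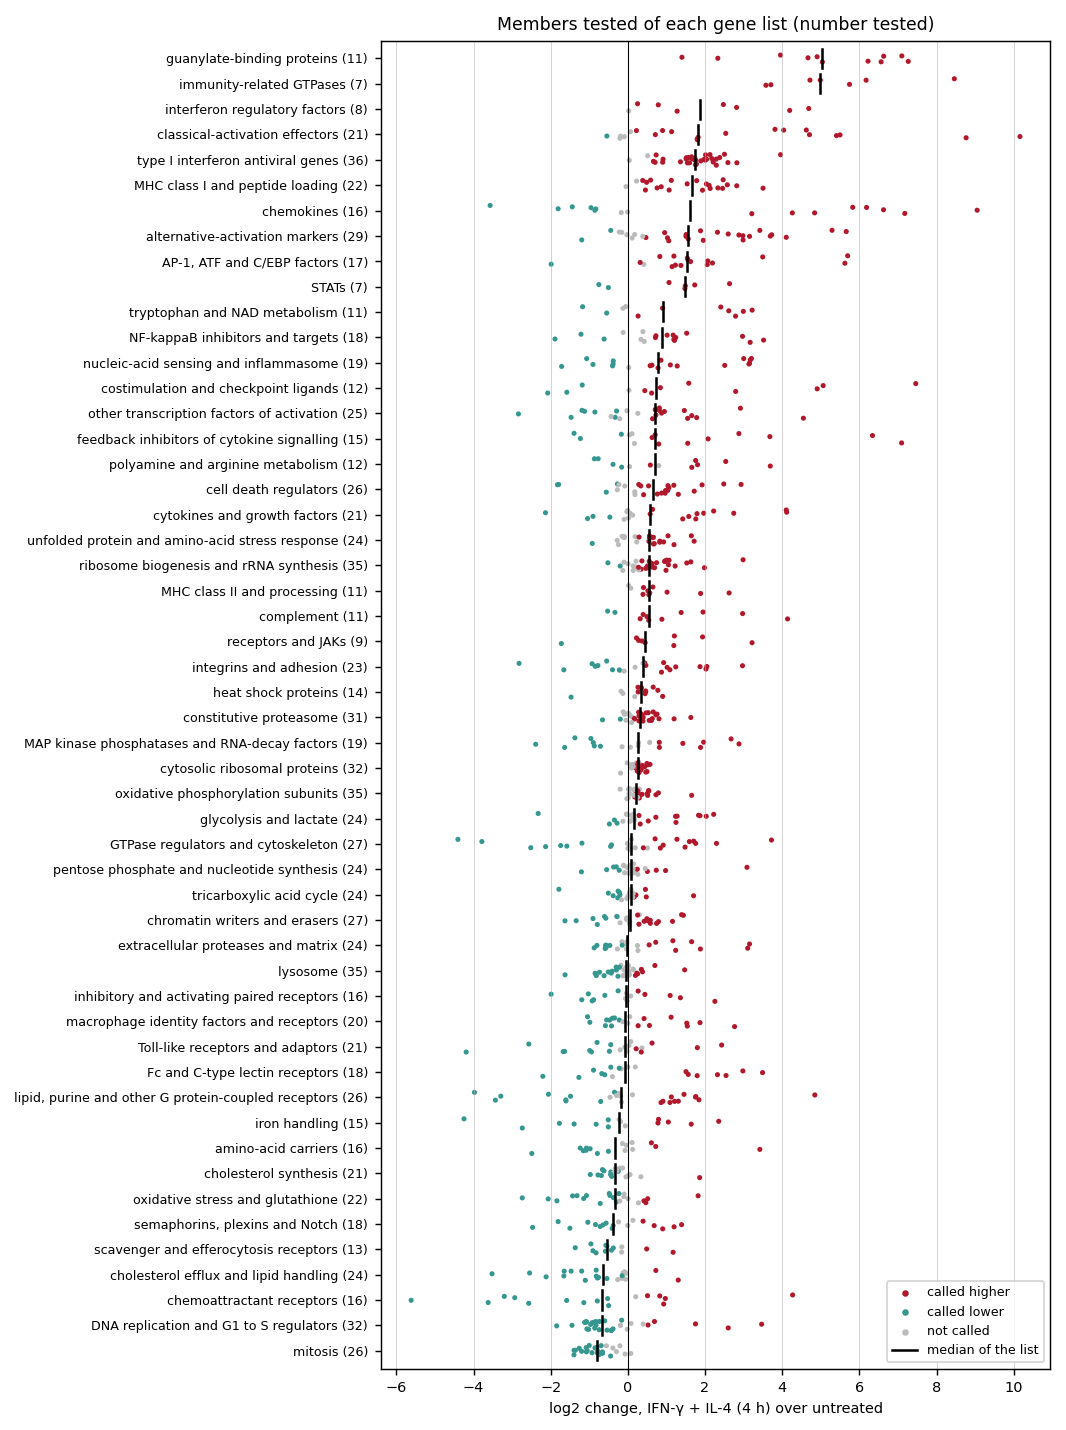
Log2 change with both cytokines over untreated for every tested member of the 52 gene lists, with the number tested in brackets, red points called higher, green points called lower, grey points not called and a black bar at the list's median. Lists are ordered by median, from guanylate-binding proteins at 5.04 to mitosis at -0.79.

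Cell cycle genes were mostly lower, and many differed widely between replicate numbers. Of 26 mitotic genes 20 fell (median -0.79). Bub1b, a kinase of the spindle checkpoint, had 1.70, 34.8 and 9.04 CPM in combination libraries 1, 2 and 3, against 5.01, 79.3 and 33.2 CPM in the untreated libraries of the same numbers (-1.36 ± 0.16, limma adjusted p = 7.60e-07). Kif23, a kinesin of cytokinesis, had 3.93, 32.1 and 9.45 CPM, against 12.03, 69.04 and 33.3 CPM (-1.40 ± 0.34), and Anln, anillin of the cleavage furrow, 1.78, 33.7 and 6.40 CPM, against 2.86, 82.8 and 29.5 CPM (-1.26 ± 0.23). The groups overlapped widely, while each combination library was below the untreated library of its number. Without the replicate block limma called 0 mitotic genes lower, also 0 at an unadjusted p under 0.05, and the limma adjusted p was 0.49 for Bub1b, 0.367 for Kif23 and 0.573 for Anln. Against untreated replicate 1 alone 9 were called lower, and as deposited 11. The call of Kif23 was also lost without replicate 3 in all groups (limma adjusted p = 0.0644). Cenpa, the centromeric histone, fell (-1.40 ± 0.29), with a change of -2.001 without replicate 2 in all groups and a limma adjusted p of 0.162 without the block. Mki67, a marker of cycling cells, was not called (-0.07 ± 0.45, limma adjusted p = 0.894), but the value hung on the libraries used: it was 1.13 against untreated replicate 1 alone, and -1.02 without replicate 1 in all groups, where the gene was called lower (limma adjusted p = 0.0175).

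Genes of DNA replication and of the G1 to S transition had 22 of 32 members down, 8 at least 2-fold, and 5 up (median -0.67). The decreases of at least 2-fold numbered 2 as deposited and 2 without the replicate block. Without the block 4 were called lower, and against untreated replicate 1 alone 12. E2f2, an activator of S-phase genes, had 3.0, 9.20 and 6.52 CPM, against 11.8, 37.3 and 28.04 CPM (-1.85 ± 0.16, limma adjusted p = 1.66e-08). Cdkn1a, which encodes the cell cycle inhibitor p21 (chr17:29090976-29100727, plus strand), rose to 891, 652 and 648 CPM, against 58.7, 73.1 and 62.3 CPM (3.47 ± 0.24, limma adjusted p = 1.52e-09). Its groups were far apart in all 3 replicate numbers. Ccnd2, cyclin D2, had 30.9, 47.9 and 22.1 CPM, against 1.99, 10.1 and 3.84 CPM (2.60 ± 0.26), and Rbl1, a relative of the retinoblastoma protein, rose by 1.75 ± 0.27. Pcna, the replication clamp, was not called (0.08 ± 0.18, limma adjusted p = 0.71), although without replicate 2 in all groups it was called higher (0.26, limma adjusted p = 0.0291). Of 27 chromatin regulators 12 rose and 7 fell. Of these genes 4 were called lower as deposited. Dnmt1, the maintenance DNA methyltransferase, had 43.6, 89.4 and 52.8 CPM, against 99.8, 230.2 and 150.1 CPM (-1.34 ± 0.11), and Kdm6b, a histone demethylase, 26.9, 10.8 and 14.9 CPM, against 7.16, 3.80 and 5.71 CPM (1.44 ± 0.28).

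**Figure D4:**
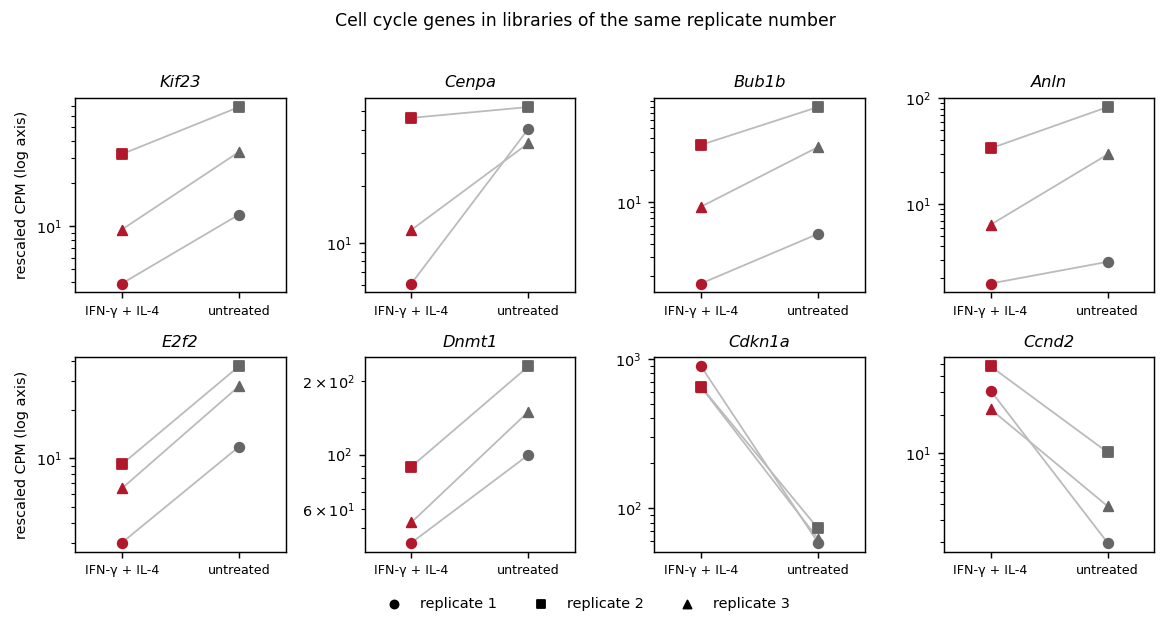
Rescaled CPM on a log axis in combination libraries (red, left) and untreated libraries (grey, right) for 8 cell cycle and chromatin genes, with a line joining libraries of the same replicate number. In the first 6 panels each line runs upward to the untreated library although the groups overlap in several, as for Bub1b; Cdkn1a and Ccnd2 run downward.

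NF-κB inhibitors and targets had 11 of 18 members up and 3 down (median 0.87). On this list 7 were called higher without the replicate block. Tnfaip3, which encodes the inhibitor A20, had 274, 109 and 169 CPM, against 37.4, 8.51 and 18.4 CPM (3.17 ± 0.19, limma adjusted p = 2.69e-10). Icam1, an adhesion molecule, had 1171, 571 and 781 CPM, against 138, 69.7 and 109 CPM (2.97 ± 0.14). Nfkbiz, an atypical inhibitor that helps induce a second wave of genes, fell to 7.10, 3.08 and 5.19 CPM, against 22.3, 17.2 and 23.5 CPM (-1.89 ± 0.26). Nfkbia, the classical inhibitor, was not called (0.42 ± 0.18, limma adjusted p = 0.0521), and edgeR on recovered reads gave an adjusted p of 0.0418. It was also called higher with TMM factors, with DESeq2, as deposited (0.65, limma adjusted p = 0.0146) and when untreated replicate 1, combination replicate 3 or replicate 1 in all groups was left out (0.59 to 0.62). Among phosphatases of MAP kinases and RNA-decay factors 7 of 19 tested members rose and 7 fell. Dusp10 rose to 21.6, 16.9 and 18.9 CPM, against 1.71, 3.08 and 1.80 CPM (2.68 ± 0.16), and Dusp1 fell to 0.991, 0.588 and 0.409 CPM, against 10.97, 7.12 and 5.59 CPM (-2.39 ± 0.19), both of them phosphatases that switch off p38 and JNK. Zfp36, tristetraprolin, which destabilises cytokine mRNA, rose by 1.96 ± 0.22.

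Adhesion, matrix and cytoskeletal genes split in both directions. Of 23 adhesion genes 11 rose and 8 fell. Of these genes 5 were called lower as deposited and 5 without the replicate block. Itgav, an integrin chain, had 673, 692 and 673 CPM, against 122, 204 and 184 CPM (2.02 ± 0.11, limma adjusted p = 5.77e-11), and Thbs1, thrombospondin, fell to 48.96, 25.3 and 37.2 CPM, against 355, 195 and 252 CPM (-2.82 ± 0.16). Fn1, fibronectin, had 112, 92.2 and 70.6 CPM with both cytokines, against 12.8, 5.85 and 10.3 CPM without (3.15 ± 0.21, limma adjusted p = 6.08e-10). Extracellular proteases and matrix genes had 8 of 24 tested members up and 9 down. On this list 2 were called lower as deposited and 2 without the replicate block. Mmp13, a collagenase, had 50.2, 329 and 28.8 CPM, against 6.51, 13.4 and 6.29 CPM (3.11 ± 0.31), replicate 2 being far above the others, and its log2 change without replicate 2 in all groups was 2.40. Among regulators of cytoskeletal GTPases 11 of 27 rose and 9 fell. Arhgap22, a GTPase-activating protein for Rac1 (chr14:33214026-33369934, plus strand), fell to 1.39, 3.21 and 2.14 CPM, against 60.5, 63.9 and 74.4 CPM (-4.41 ± 0.13, limma adjusted p = 7.32e-14). Fgd3, an exchange factor for Cdc42, had 2.83, 5.38 and 5.41 CPM, against 85.96, 88.6 and 103 CPM (-4.11 ± 0.16), and Cdc42ep2, an effector of Cdc42, rose to 86.6, 32.97 and 45.5 CPM, against 5.99, 1.33 and 2.71 CPM (3.72 ± 0.14). The GTPases Rhoa (0.00 ± 0.07) and Cdc42 (0.09 ± 0.08) themselves did not pass the test (limma adjusted p = 0.976 and 0.324), but Cdc42 was called higher without replicate 2 in all groups (0.17, limma adjusted p = 0.0374). Semaphorins, plexins and Notch genes had 10 of 18 tested members down and 5 up. Of these genes 3 were called higher without the replicate block. Jag1, a Notch ligand, had 1.19, 0.790 and 1.44 CPM, against 13.6, 10.2 and 8.98 CPM (-2.47 ± 0.27), while the receptor Notch1 rose by 1.39 ± 0.15.

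The combination was also set against each cytokine alone at 4 h, which asks what the second cytokine changed. Against IL-4 alone 6377 genes were called (56.0% of genes tested), 2972 higher (26.1%) and 3405 lower (29.9%). Against IFN-γ alone 3705 were called (32.6%), 1590 higher (14%) and 2115 lower (18.6%). Changes of at least 2-fold numbered 863 higher (7.58%) and 351 lower (3.08%) against IL-4, and 280 higher (2.46%) and 279 lower (2.45%) against IFN-γ. As deposited, the 2-fold counts were 653 higher and 686 lower against IL-4, and 310 higher and 233 lower against IFN-γ. The split of all calls as deposited was 1317 higher and 3636 lower against IL-4, and 842 higher and 655 lower against IFN-γ, with median log2 changes of -0.27 and 0.05. Without the block 3518 and 1350 genes were called. Leaving out replicate 3 in all groups left 1822 genes called against IFN-γ, and leaving out replicate 1 left 2276. These 2 comparisons share the combination libraries with the comparison against untreated cells.

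All 36 antiviral genes were higher with the combination than with IL-4 alone, while 1 was lower than with IFN-γ alone. Guanylate-binding proteins were higher than with IL-4 in 11 of 11 and lower than with IFN-γ in 6. Of 18 NF-κB inhibitors and targets 16 were lower with the combination than with IFN-γ alone, as were 16 of 21 classical effectors and 11 of 21 cytokines and growth factors. Nod2, which was not called against untreated cells, had 9.06, 8.29 and 7.41 CPM with the combination, against 109, 31.7 and 74.6 CPM with IFN-γ alone (-2.81 ± 0.28, limma adjusted p = 7.25e-07). Ccl5 likewise had 12.8, 4.37 and 3.27 CPM with the combination, against 167, 28.02 and 104 CPM with IFN-γ (-3.56 ± 0.32, limma adjusted p = 2.21e-07). Nfkbia had 91.8, 56.5 and 55.2 CPM, against 428, 192 and 438 CPM (-2.31 ± 0.18, limma adjusted p = 5.91e-08). Each combination library of these 3 genes lay below every IFN-γ library.

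Of 29 markers of alternative activation 9 were higher and 15 lower with the combination than with IL-4 alone, and 22 were higher than with IFN-γ alone. Socs2 had 14.7, 6.79 and 9.45 CPM with the combination, against 50.1, 42.8 and 39.5 CPM with IL-4 (-2.05 ± 0.13, limma adjusted p = 1.17e-09). Tmem26 had 21.4, 20.3 and 17.2 CPM, against 90.7, 103 and 80.4 CPM with IL-4 (-2.16 ± 0.13, limma adjusted p = 6.02e-10). Flt1 differed in the other direction, with 102, 59.5 and 95.02 CPM against 37.02, 29.1 and 36.96 CPM (1.26 ± 0.18, limma adjusted p = 1.14e-05), and so did Clec7a, by 1.41 ± 0.21 (limma adjusted p = 2.19e-05). Ribosome biogenesis was higher than with IFN-γ alone in 30 of 35 members, and lower than with IL-4 alone in 15. Myc had 40.2, 28.3 and 26.4 CPM with the combination, against 2.47, 2.27 and 1.54 CPM with IFN-γ (3.39 ± 0.13, limma adjusted p = 6.74e-12), and did not pass the test against IL-4 (-0.15 ± 0.13, limma adjusted p = 0.343). Ahr was between the single cytokines, lower than with IL-4 (-1.21 ± 0.14) and higher than with IFN-γ (2.64 ± 0.14).

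Another set of genes went past both single cytokines. Those called higher with the combination against untreated, IL-4 and IFN-γ, each comparison on its own, numbered 394 (3.46% of genes tested), and those called lower in all 3 numbered 560 (4.92%). Such a gene need not exceed the sum of the single changes, which was not tested here. Socs1 had 256, 305 and 209 CPM with both cytokines, against 42.4, 66.8 and 55.3 CPM with IL-4 (2.21 ± 0.19, limma adjusted p = 3.81e-08) and 127, 99.1 and 114 CPM with IFN-γ (1.16 ± 0.19, limma adjusted p = 0.000133). Pdcd1lg2 had 268, 195 and 198 CPM, against 96.6, 73.04 and 72.3 CPM with IL-4 (1.43 ± 0.21) and 7.14, 1.43 and 3.13 CPM with IFN-γ (5.65 ± 0.21). Ccl24 had 708, 223 and 399 CPM, against 102, 52.4 and 72.3 CPM with IL-4 (2.43 ± 0.19, limma adjusted p = 1.54e-08) and 8.21, 1.09 and 2.35 CPM with IFN-γ. For these genes every combination library was above every library of either single cytokine. Cish had 165, 126 and 126 CPM, against 75.1, 60.3 and 66.2 CPM with IL-4 (1.03 ± 0.20, limma adjusted p = 0.000384) and 43.5, 12.3 and 31.4 CPM with IFN-γ (2.37 ± 0.20). Serpina3f was higher than with IFN-γ by 0.59 ± 0.20 (limma adjusted p = 0.0324), with overlapping libraries, and Ccl7 was higher than with IL-4 by 1.21 ± 0.25 (limma adjusted p = 0.000511), also with overlap.

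The decreases past both single cytokines included Tlr13 and Slc40a1. Tlr13 had 18.5, 41.4 and 24.4 CPM with both cytokines, against 61.2, 91.1 and 61.1 CPM with IL-4 (-1.36 ± 0.14, limma adjusted p = 2.31e-07), 90.1, 194 and 94.5 CPM with IFN-γ (-2.11 ± 0.14, limma adjusted p = 4.04e-09) and 494, 573 and 451 CPM untreated. Slc40a1 had 5.43, 8.64 and 5.48 CPM, against 21.7, 12.2 and 16.9 CPM with IL-4 (-1.24 ± 0.27, limma adjusted p = 0.000865) and 37.6, 42.5 and 24.1 CPM with IFN-γ (-2.24 ± 0.27). Arhgap22 had 1.39, 3.21 and 2.14 CPM, against 7.52, 9.81 and 10.5 CPM with IL-4 (-1.69 ± 0.13) and 6.46, 8.68 and 6.54 CPM with IFN-γ (-1.37 ± 0.13). For these 3 genes the combination libraries lay below all libraries of either single cytokine. Fgd3 was lower by 1.99 on the log2 scale than with IFN-γ and by 1.76 than with IL-4. The smallest difference among the 8 largest decreases of this kind was that of Arrdc3, which had 1.02, 1.35 and 2.19 CPM with both cytokines, against 2.01, 4.02 and 3.32 CPM with IFN-γ (-0.70 ± 0.13, limma adjusted p = 0.000485), where the libraries overlapped.

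**Figure D5:**
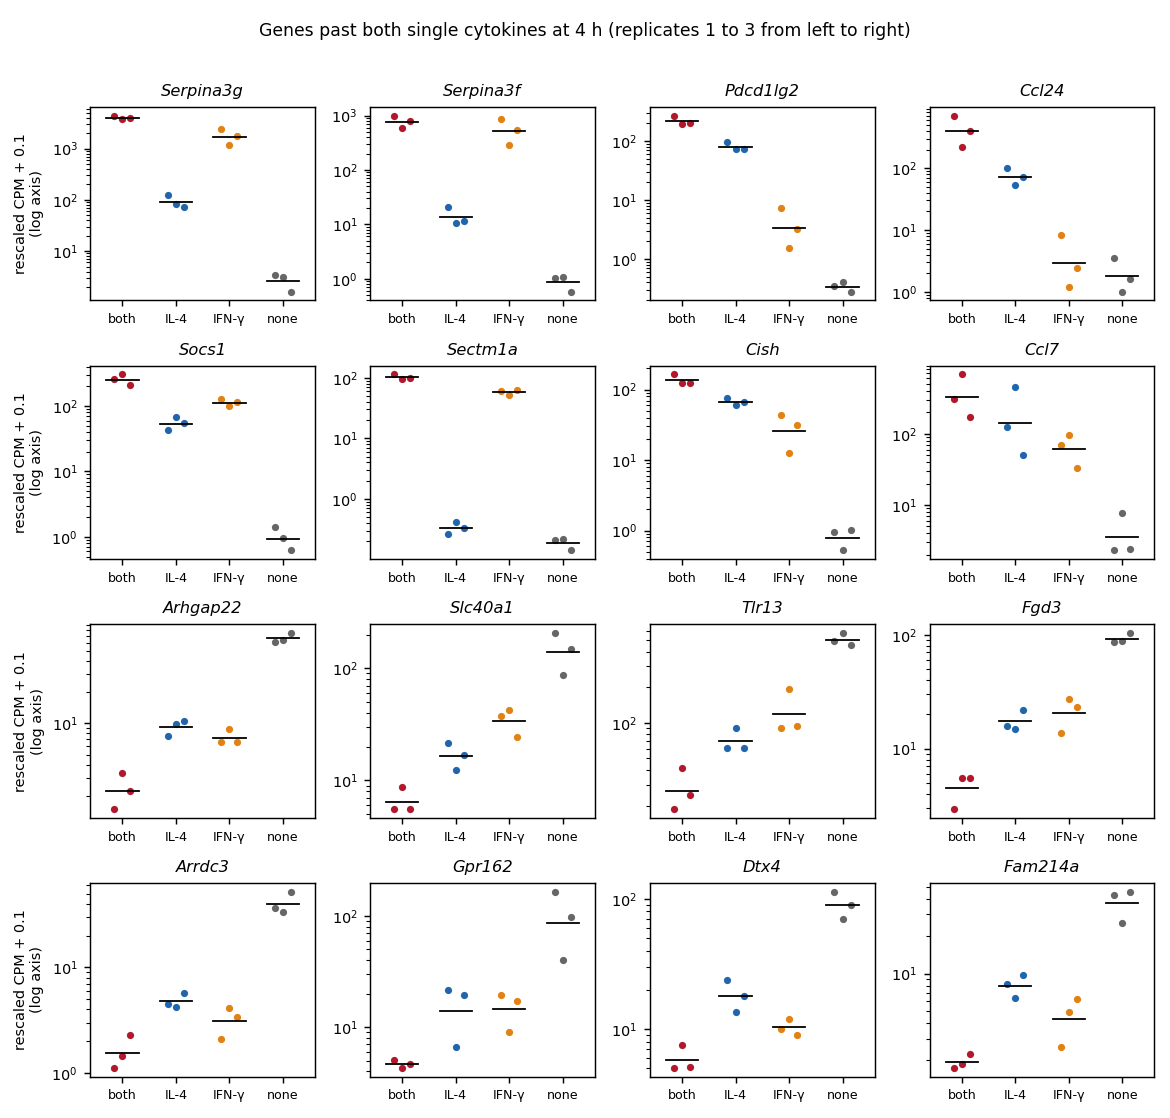
Rescaled CPM + 0.1 on a log axis in each library at 4 h for the 8 largest increases (upper panels) and 8 largest decreases (lower panels) called against untreated and both single cytokines, with combination libraries (both) on the left and untreated libraries (none) on the right and a bar at the geometric mean. Combination libraries stand above the other groups for Socs1 and Pdcd1lg2 and below them for Tlr13 and Slc40a1, while those of Serpina3f and Ccl7 overlap a single cytokine.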

How the data were processed

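RNA sequencing of mouse macrophage cultures gave a table of CPM (counts relative to library size) for 24421 genes in 21 libraries. The authors made poly(A) libraries with a TruSeq RNA kit, per the labels' protocols, and the deposited CPM come from TopHat2 2.1.0, HTSeq and edgeR on mm10/GRCm38, per the submitters' processing notes; strandedness of the counting is not given in the sources used here. Whole reads were recovered from the deposited CPM (100% of values within 0.01 read). Overlapping and antisense genes, and genes with near-identical copies, cannot be told apart in such counts. The filter kept 11380 genes that reached 1 CPM in 3 or more of 21 libraries, and libraries were rescaled by the median ratio over 11323 genes with reads in all. Log2(CPM + 1) was fitted in limma 3.58.1 (R 4.3.3, trended prior) with 7 group means and the replicate number as a block, leaving 12 residual degrees of freedom, and p-values were adjusted over all genes tested by the Benjamini-Hochberg method. Deviations of same-numbered libraries from their group means correlated at 0.5397 to 0.9514 over 63 pairs, so the numbers pair the samples. The threshold for a call was an adjusted p of 0.05.

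Named genes were, each way, the 15 largest non-overlapping changes among genes whose higher group averaged 5 CPM or more. From each of 52 lists came up to 4 called members by size of change and up to 2 not called by level. The 8 largest changes in each direction also called against both single cytokines were named too. Promoter windows, Stat6 and Abcg1 were chosen after values were seen. Members and lists were chosen with earlier results of these data known. Alternatives were other scalings, pseudocounts and filters, no block, edgeR 4.0.16 and DESeq2 1.42.0 on recovered reads, and leaving out replicates. The 24 hairpin samples were not analysed here. Some genes of these lists are not reported by name here. Gene coordinates are those of GENCODE vM21 and promoter windows those of RefSeq, and 24335 of the table's symbols were found in these annotations. The limma step was tested on simulated data built like the fitted model, with a shared effect of the replicate number. That test does not bear on the uneven ribosomal RNA or on what the replicates are. Python 3.11.15 with pandas 2.3.3 and matplotlib 3.10.9 made the summaries and figures.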

Additional observations from a re-analysis of the deposited data

How the results depend on the processing

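Over untreated cells 7622 genes were called, against 4872 (2518 higher, 2354 lower) without the replicate block and 5851 to 7391 when any replicate was left out. TMM factors gave 7612, edgeR 7611, DESeq2 7612, pseudocounts of 0.1 and 5 CPM 7623 and 7573, no filter 8568, a filter at 5 CPM 6777 and the 6 libraries alone 6094. Against IL-4 the 6377 calls became 3518 without the block and 4433 to 6198 with a replicate left out. Against IFN-γ the 3705 calls became 1497 as deposited, 1350 without the block and 1822 to 3993 with a replicate left out; the lowest of these was without replicate 3 in all groups, and 2276 were called without replicate 1. The cause of these differences was not tested. Of the 1870 genes called with at least 2-fold changes, 1745 were still called in the same direction without the block and 1855 without replicate 3. The count of at least 2-fold decreases was 818, and 1102 and 506 with pseudocounts of 0.1 and 5 CPM, since the pseudocount limits how far a low gene can fall.

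In the comparison with untreated cells, none of the 302 named genes checked changed direction while called, under any of these alternatives. The values of named genes against IL-4 and IFN-γ alone were not checked in this way. Without the replicate block 13 lost their call, with untreated replicate 1 as the lone control 4, as deposited 1 (Aco1, limma adjusted p = 0.233), without replicate 1 in all groups 2 and without replicate 3 in all groups 3. Calls were gained by 18 without replicate 2 in all groups, 10 without combination replicate 2, 8 without replicate 1 in all groups, 6 as deposited and at most 4 under each other alternative. List counts over untreated cells were redone without the block, as deposited, with TMM factors and against untreated replicate 1 alone. List counts against IL-4 and IFN-γ alone were not redone, nor were any with other replicates left out. Where a redone count of called members given above, at any fold change, moved by over 1.5 times, this stands beside the list. Left out are counts of 1 or 2 calls that moved by 1 (alternative activation, classical effectors, cholesterol synthesis, tryptophan metabolism and protein stress). Counts of members with at least 2-fold changes also moved, and these moves are given for some lists only. Calls of genes under about 1 CPM rest on few reads, which limits their fold changes. Ribosomal RNA took up an uneven share of the reads in untreated libraries 2 and 3. Library 2 was also the shallowest of the 6, at 28920801 reads, which leaves it fewer reads for other genes. Library 3 was the deepest, at 80028327 reads.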

Other observations

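The same cytokine pair was also given for 2 h, in 3 libraries that entered the fit and are set here beside the 4 h values. Both times share the untreated libraries, and the difference between them was not tested. The log2 change over untreated of Flt1, a VEGF receptor, was 2.17 ± 0.18 at 2 h and 5.66 ± 0.18 at 4 h. Arg1, the arginase of alternative activation, had 0.89 ± 0.40 at 2 h and 3.69 ± 0.40 at 4 h, and Ciita, the regulator of MHC class II genes, 0.38 ± 0.11 and 2.62 ± 0.11. Ccnd2, cyclin D2, had 0.19 ± 0.26 at 2 h and 2.60 ± 0.26 at 4 h. At 2 h these genes had the smaller part of their 4 h change. Serpina3g had 7.80 ± 0.19 at 2 h and 10.16 ± 0.19 at 4 h, and Cxcl9 7.03 ± 0.32 and 9.05 ± 0.32. For both, the 2 h value was the larger part of the 4 h value on the log2 scale, and the smaller part of it in CPM.

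Some members went the other way over time. Ahr, the aryl hydrocarbon receptor, had a log2 change of 3.87 ± 0.14 at 2 h and 1.78 ± 0.14 at 4 h. Ptger4, a receptor for prostaglandin E2, had 1.69 ± 0.30 at 2 h and -0.23 ± 0.30 at 4 h, where it was within its standard error of 0. Among the deepest decreases at 4 h, Nav2, a neuron navigator protein, had -0.23 ± 0.18 at 2 h and -3.78 ± 0.18 at 4 h, and Zdhhc14 -0.15 ± 0.20 and -3.60 ± 0.20, whereas S1pr1 had -3.92 ± 0.28 and -5.62 ± 0.28. The median log2 change of 11 guanylate-binding proteins was 3.84 at 2 h and 5.04 at 4 h, and that of 22 MHC class I genes 0.64 and 1.66. Phosphatases of MAP kinases and RNA-decay factors had a median of -0.52 at 2 h and 0.27 at 4 h, and mitotic genes -0.40 and -0.79.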
